A study of Mus musculus with 6 samples.

Results

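The AP-1 genes Jun, Junb, Jund, Fos, Fosb, Fosl1, Fosl2 and Atf3 were followed in digits-in-a-dish (DID) cultures, in which cells of the distal forelimb mesenchyme reassemble into digit-like elements. The genes were taken by their symbols, and each of these 8 symbols was found once among the 32286 genes counted in every library. The cultures were grown from limb buds pooled from wildtype CD-1 mouse embryos at embryonic day 11.5, which were dissociated with trypsin and collagenase before seeding, and no group carried a transgene or a treatment. Single-cell RNA sequencing of independent cultures gave 2 droplet libraries per day, called A and B, from Day 2, Day 7 and Day 10 of culture. Each library mixes all the cell types of a culture that was dissociated a second time for sequencing, and no undissociated sample was among the 6 libraries. A response of these genes to dissociation and their level in the intact culture therefore cannot be told apart in any value that follows.

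AP-1 factors bind DNA as dimers of leucine-zipper proteins, in which a Jun protein pairs with another Jun protein, with a Fos protein or with an ATF protein. Jun, Junb, Fos, Fosb and Atf3 are immediate early genes that serum, growth factors, wounding and stress switch on quickly and briefly, and warm enzymatic dissociation of tissue is known to do the same. Jund is usually expressed more evenly, and Fosl1 and Fosl2 encode Fos-related proteins that appear later after a stimulus. In the skeleton, AP-1 is known for its place in cartilage growth, in bone formation through Fosl1, Fosl2 and Junb, and in osteoclasts through Fos.

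In the GRCm38 annotation the Jun genes lie at Jun (ENSMUSG00000052684, chr4:95049034-95052222, minus strand), Junb (ENSMUSG00000052837, chr8:84974484-84978718, minus strand) and Jund (ENSMUSG00000071076, chr8:70698949-70700616, plus strand). The Fos genes are Fos (ENSMUSG00000021250, chr12:85473890-85477273, plus strand), Fosb (ENSMUSG00000003545, chr7:19302696-19310051, minus strand), Fosl1 (ENSMUSG00000024912, chr19:5447547-5455946, plus strand) and Fosl2 (ENSMUSG00000029135, chr5:32135801-32157842, plus strand), and the remaining gene is Atf3 (ENSMUSG00000026628, chr1:191170296-191218039, minus strand). Jun overlaps Junos, Junb overlaps Prdx2, Jund overlaps Gm11175, Fosl1 overlaps Ccdc85b and Atf3 overlaps Gm24748 on the other strand. The sources used here do not state how counting used strand, and whether reads of the overlapping genes entered these counts was not examined. Fos, Fosb and Fosl2 overlap no other annotated gene.

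Promoter sequences were found in RefSeq (GRCm38.p6) for 7 of the 8 genes, all but Fosl1. The last 80 bases before the start site are printed for the 4 genes in which they held one of the motifs searched, since cyclic AMP response element (CRE) factors and AP-1 itself are known to act on the promoters of such early genes. Capitals mark TGACATCA in Jun, TGACGT and the TATA box TATAAA in Fos, TGACGC in Fosb, and ACGTCA, which reads TGACGT on the other strand, in Atf3. The RefSeq start used for Atf3 lies inside the gene as annotated above, so its window stands before an internal start, and that of Fosb overlaps the 5′ end of the annotated gene.
Jun, chr4:95052223-95052302, minus strand: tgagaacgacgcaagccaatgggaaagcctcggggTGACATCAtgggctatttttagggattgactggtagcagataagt
Fos, chr12:85473810-85473889, plus strand: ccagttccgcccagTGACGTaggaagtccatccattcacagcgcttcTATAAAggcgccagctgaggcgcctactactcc
Fosb, chr7:19310046-19310125, minus strand: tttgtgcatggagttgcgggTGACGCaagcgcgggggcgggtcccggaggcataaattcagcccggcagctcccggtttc
Atf3, chr1:191183334-191183413, minus strand: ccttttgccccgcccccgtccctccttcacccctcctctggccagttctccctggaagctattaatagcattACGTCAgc
These motifs were picked after the promoters had been looked at, so their presence is a description. Within 250 bases before the start and on both strands, TGACATCA was found in 2.93% of 32851 mouse promoters and, among the 7, only in Jun. TGACGT was found in 6.47% of all promoters and in Fos and Atf3, and TGACGC in 6.12% and in Fosb and Junb. TATAAA on the gene's own strand was found in 7.59% of all promoters and in Fos. Neither the full CRE TGACGTCA, present in 1.55% of promoters and containing TGACGT, nor the AP-1 element TGANTCA, present in 6.75%, was found in any of the 7 windows.

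After the study's filters on cells, the libraries held 9448 to 16486 cells and 178022112 to 260245417 unique molecular identifiers (UMIs, one per counted RNA molecule). The libraries differed in depth per cell, with a median of 3871 UMIs in Day 2 B against 18587 in Day 2 A and 8062 to 24197 in the others. Any pair of libraries shared 24 to 67 cell barcodes, at most 0.543% of the cells of a library. UMIs were summed over the cells of a library, and levels are given as counts per 1000000 UMIs of that sum (CPM), library A before library B. Because reads come from the 3′ ends of transcripts, a level is compared between samples and not between genes.

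Across whole cultures the 3 Jun genes went different ways. Jun was at 281 and 246 CPM at Day 2, 143 and 143 at Day 7 and then 151 and 143 at Day 10. Both Day 2 cultures lay far above all 4 later ones, which were close to each other. Junb rose at each step, from 174 and 154 CPM at Day 2 through 188 and 199.5 at Day 7 to 271 and 309 at Day 10, with no overlap between days. Jund, the more evenly expressed member, was at 471 and 395 CPM at Day 2, 292 and 289.7 at Day 7 and then 317 and 313 at Day 10, so that both Day 2 cultures stood above all later ones, and both Day 10 cultures slightly above both Day 7 cultures.

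The Fos genes split in the same way. Fos was at 557 and 459 CPM at Day 2, 300.1 and 329.9 at Day 7 and then 317 and 328 at Day 10, with the Day 2 cultures highest and the ranges of Day 7 and Day 10 overlapping. Fosb, its closest relative, took the opposite course at 81.8 and 72.4 CPM at Day 2, 99.3 and 108 at Day 7 and then 127 and 119.6 at Day 10, and the days did not overlap. Fosl2 was at 13.4 and 15.4 CPM at Day 2, 30.3 and 30.05 at Day 7 and then 34.5 and 35.1 at Day 10, and thus more abundant in every later culture than in either Day 2 culture. Fosl1 was sparse but rose throughout, at 0.983 and 1.12 CPM at Day 2, 2.29 and 2.68 at Day 7 and then 5.52 and 6.55 at Day 10, which rests on 200 to 1528 UMIs per library. Atf3, a stress-induced member of the ATF family, stayed within a narrow band of 23.1 and 18.9 CPM at Day 2, 19.03 and 20.9 at Day 7 and then 24.4 and 25.3 at Day 10, and its ranges at Day 2 and Day 7 overlapped.

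**Figure D1:**
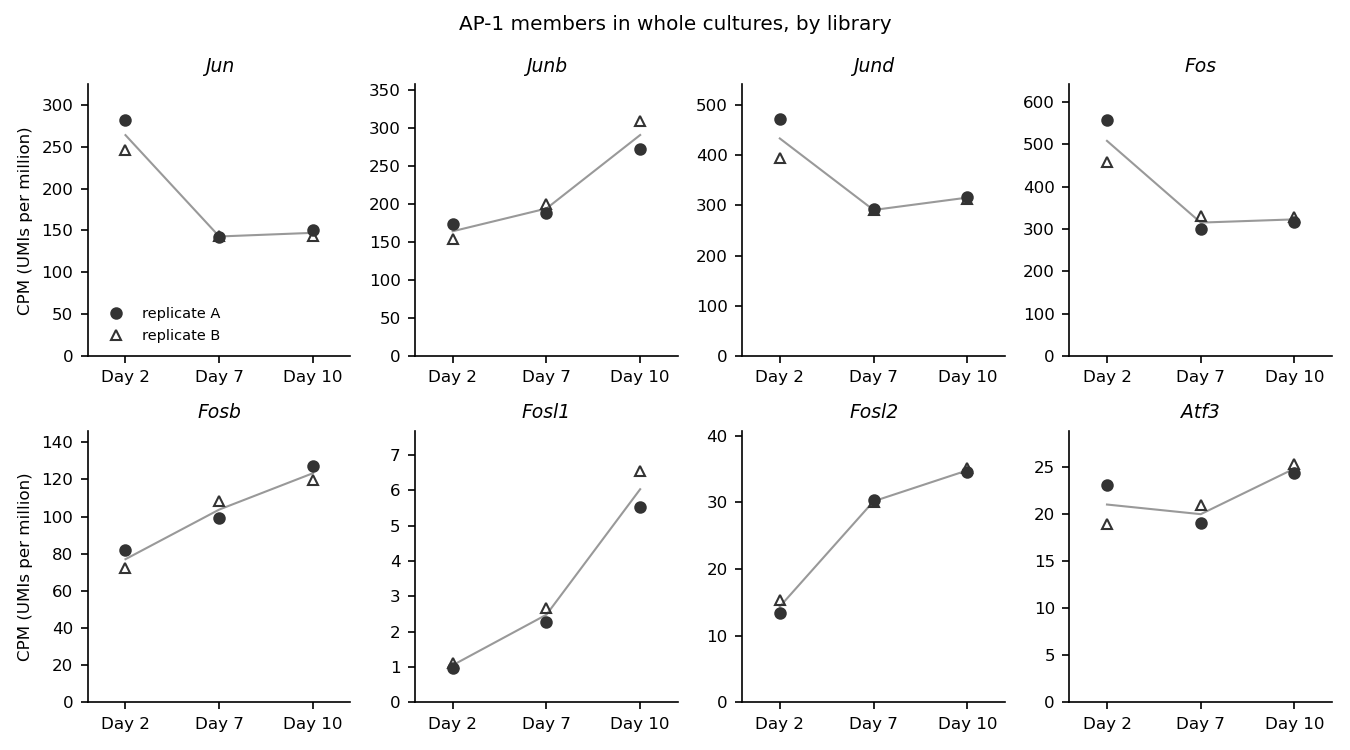
Level of each AP-1 gene in whole cultures, in CPM on a linear axis from 0, against day of culture, with 1 point for each of the 6 libraries and a line through the mean of each day. Jun, Jund and Fos are highest at Day 2, whereas Junb, Fosb, Fosl1 and Fosl2 are highest at Day 10, and for Jun, Jund, Fos and Atf3 A and B lie farthest apart at Day 2, as for Fos at 557 and 459 CPM.

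From Day 2 to Day 7, Jun (log2 fold change -0.61 ± 0.075, adjusted p = 9.4e-05, SE after the sign), Fos (-0.41 ± 0.098, adjusted p = 0.0051) and Jund (-0.29 ± 0.086, adjusted p = 0.014) fell. Over the same step Junb (0.52 ± 0.084, adjusted p = 0.00051), Fosb (0.71 ± 0.079, adjusted p = 4.7e-05), Fosl2 (1.35 ± 0.064, adjusted p = 2.5e-07) and Fosl1 (1.52 ± 0.13, adjusted p = 9.2e-06) rose, and Atf3 did not pass (0.21 ± 0.096, adjusted p = 0.081). The 7 members that passed, 4 higher and 3 lower, are to be read against 70.3% of all 18987 genes tested, 35.7% higher and 34.6% lower, so a changed member is not unusual between these days. From Day 7 to Day 10 no member fell, and Fosl1 (1.26 ± 0.12, adjusted p = 8.5e-05), Junb (0.56 ± 0.084, adjusted p = 0.00082), Atf3 (0.29 ± 0.095, adjusted p = 0.031), Fosb (0.23 ± 0.078, adjusted p = 0.038) and Fosl2 (0.18 ± 0.062, adjusted p = 0.035) rose. These 5 stand beside 52.2% of all genes called and 26.3% called higher, and Jun, Fos and Jund had log2 differences of 0.022, 0.012 and 0.096 that did not pass.

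Between Day 2 and Day 10, 7 members passed, 5 of them higher and 2 lower, where 77.3% of all genes did, 39% higher and 38.2% lower. The log2 change was largest for Fosl1 (2.78 ± 0.13, adjusted p = 1.4e-07), followed by Fosl2 (1.54 ± 0.064, adjusted p = 8.3e-08), Junb (1.08 ± 0.085, adjusted p = 3.6e-06), Fosb (0.94 ± 0.079, adjusted p = 5.9e-06) and Atf3 (0.50 ± 0.095, adjusted p = 0.0012), whereas Jun (-0.58 ± 0.075, adjusted p = 9.6e-05) and Fos (-0.40 ± 0.098, adjusted p = 0.0052) fell. Jund missed the threshold (-0.20 ± 0.086, adjusted p = 0.061). All these fold changes are relative to the bulk of genes as TMM factors set it. With library totals in place of TMM factors, the median gene moved by -0.28 for Day 7 and by -0.26 for Day 10 against Day 2, Jund passed at -0.46, and Atf3 at Day 7 turned to -0.073 without passing.

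Some of these calls depended on the cells or libraries taken. The log2 difference of Fos from Day 2 to Day 10 still passed with cells thinned to 3000 UMIs (-0.50 with an adjusted p of 0.0041), but in cells of 10000 to 30000 UMIs it was -0.17 with an adjusted p of 0.056, while Jun (-0.72) and the 5 rises still passed. In the step from Day 7 to Day 10, the calls of Fosb, Fosl2 and Atf3 were lost without Day 7 A, without Day 10 A and without Day 10 B, which left Junb and Fosl1, and that of Fosl2 also without Day 7 B. Fosb was also lost in cells of 10000 to 30000 UMIs (0.17 with an adjusted p of 0.058). With cells thinned to 3000 UMIs Junb was 0.23 with an adjusted p of 0.06, and the members called there were Fosl1 and Jun, which fell (-0.27). From Day 2 to Day 7, Jund lost its call without Day 7 A (-0.28, adjusted p = 0.078) or Day 7 B (-0.29, adjusted p = 0.071), Fos lost its call without Day 7 A (-0.32, adjusted p = 0.057), and Atf3 gained one without Day 2 A (0.38, adjusted p = 0.0033). With thinned cells Fos was -0.23 with an adjusted p of 0.13 over that step, and Atf3 rose there (0.36 with an adjusted p of 0.018) and in cells of 10000 to 30000 UMIs (0.58 with an adjusted p of 0.0017). Jund from Day 2 to Day 10, at -0.20 with all libraries, passed with thinned cells (-0.42) and was -0.33 without Day 2 B.

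The other genes of the pathway were read from a list of 31 partners and regulators, which holds further bZIP factors, the MAP kinases that activate them, the serum response factors that drive Fos and the Dusp phosphatases that end the signal. Of 30 tested, 15 rose and 10 fell from Day 2 to Day 10, with a median log2 change of 0.12 beside 0.0013 over all genes, of which 77.3% were called, 39% higher and 38.2% lower, but with library totals the split was 10 higher and 16 lower. The kinase gene Mapk3 (1.34 ± 0.06, adjusted p = 1.2e-07) and the stress factor Atf4 (1.42 ± 0.061, adjusted p = 9.8e-08) rose, while the Jun partner Batf3 (-2.08 ± 0.075, adjusted p = 3.7e-08) and the phosphatase Dusp4 (-1.89 ± 0.22, adjusted p = 4.5e-05) fell. Dusp1, which shuts off MAP kinases and is itself an immediate early gene, was at 31.4 and 28.2 CPM at Day 2, 44.1 and 43.2 at Day 7 and then 54.1 and 56.6 at Day 10.

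Genes known as AP-1 targets moved mostly upward across the days in whole cultures. Of 12, 10 rose and 1 fell from Day 2 to Day 10, with a median of 1.72 beside 0.0013 over all genes, where 77.3% of genes were called and 39% called higher, and the split was the same with library totals. Over the same days 7 of 8 cartilage markers and 6 of 6 macrophage markers were also higher, the former summing to 1646 and 1804 CPM at Day 2 and 9421 and 8699.6 at Day 10 and the latter to 23.1 and 11.4 CPM and then 96.9 and 122, and their part in the target genes was not tested. Timp1, an inhibitor of matrix metalloproteinases, was at 63.3 and 53.2 CPM at Day 2, 297 and 296 at Day 7 and then 519 and 554 at Day 10. The matrix protein gene Spp1 was at 341 and 249.9 CPM at Day 2, 536 and 547 at Day 7 and then 1422 and 1590.3 at Day 10, and so also climbed with each day. Mmp13, the collagenase of hypertrophic cartilage and bone, was at 0.00486 and 0.0112 CPM at Day 2, 1.98 and 2.28 at Day 7 and then 17.2 and 17.3 at Day 10, that is at or near 0 at Day 2, and its fitted fold change has no meaning as a size. Ccnd1, which promotes entry into the cell cycle, was the gene that fell (-0.19 ± 0.075, adjusted p = 0.042).

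A list of 22 other genes that dissociation and heat shock are known to induce was read beside the AP-1 genes. From Day 2 to Day 7, 9 rose and 9 fell, beside 70.3% of all genes called and 35.7% called higher, and from Day 2 to Day 10, 14 rose and 3 fell, beside 77.3% called and 39% called higher. With library totals in place of TMM factors these splits were 5 higher and 13 lower and 8 higher and 7 lower, so the direction of this list against Day 2 depends on the scaling. From Day 7 to Day 10, the step in which 5 AP-1 genes rose, 16 rose and 0 fell (18 higher and 0 lower with library totals), with a median log2 change of 0.34 against -0.016 over all genes and beside 52.2% of genes called and 26.3% called higher. Their summed level was 4798 and 4609.8 CPM at Day 2, 3799 and 3754 at Day 7 and then 4505 and 4499 at Day 10, so it was lowest at Day 7 and close at the other days. Egr1, an immediate early zinc-finger factor, was at 467 and 487 CPM at Day 2, 234 and 238 at Day 7 and then 206 and 233 at Day 10 and thus, like Fos and Jun, highest at Day 2. Nr4a1, another immediate early gene, was at 27.2 and 28.1 CPM at Day 2, 71.4 and 71.8 at Day 7 and then 66.1 and 75 at Day 10 and highest after Day 2. Hspa1a, the inducible heat shock gene, stayed low at 1.15 and 1.16 CPM at Day 2, 1.46 and 1.28 at Day 7 and then 2.45 and 2.11 at Day 10. The part of dissociation in any of these levels was not tested.

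Within a culture, UMIs of the immediate early members were unevenly spread over cells. To compare cells at equal depth, each cell of at least 3000 UMIs was thinned to 3000 UMIs, which left 8802 to 9653 cells per library. A Fos UMI was then found in 38.3 to 61.3% of cells (52.8 to 84.4% before thinning), a Jun UMI in 29.8 to 47.1% (45.2 to 78.99% before) and a Fosl1 UMI in 0.239 to 1.37% (0.91 to 7.69% before). Free RNA in the droplets adds to such shares, and no cell type known to lack Fos or Jun was at hand to measure it. The 10% of cells with most Fos held 40.3% and 41.8% of Fos UMIs at Day 2, 64.7% and 65.7% at Day 7 and then 49.3% and 48.7% at Day 10. Fos was thus most concentrated in few cells at Day 7, when its level in whole cultures overlapped that at Day 10. For Jund the top 10% of cells held 32.6 to 42.8%, less than for Fos in every library.

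Across the thinned cells, UMIs of Jun, Junb, Jund, Fos and Fosb tended to occur together. Pearson's correlation of log2(UMI + 1), averaged over the 6 libraries, was 0.43 for Fos and Fosb (lowest 0.34, highest 0.54), 0.41 for Fos and Junb (0.23 to 0.58) and 0.29 for Fos and Jun (0.17 to 0.38). Jund, the more evenly expressed member, averaged 0.21 with Fos, 0.18 with Jun, 0.16 with Junb and 0.14 with Fosb, beside 0.19 for Jun and Junb. With Atf3 the average was at most 0.11, and Fosl1 lay between -0.021 and 0.018 with every other member. The cells of a library share its droplets and free RNA, and Fosl1 and Atf3 have too few UMIs per cell for a weak correlation to be read. Among 5172 genes with a UMI in at least 5% of thinned cells of every library, the 5 most like Fos were Egr1 (0.45), Fosb, Junb, Ier2 (0.34) and Jun. Those most like Jun were Fos, Fosb, Egr1 (0.20), Junb and Ier2. For Atf3 the leading gene was Dusp1 at 0.12, followed by Fos, Btg2, Junb and Ier3. For Fosl1 it was S100a6 at 0.10, followed by Timp1, Hbegf, Hmga2 and Anxa1, all too weak to be more than a listing.

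**Figure D2:**
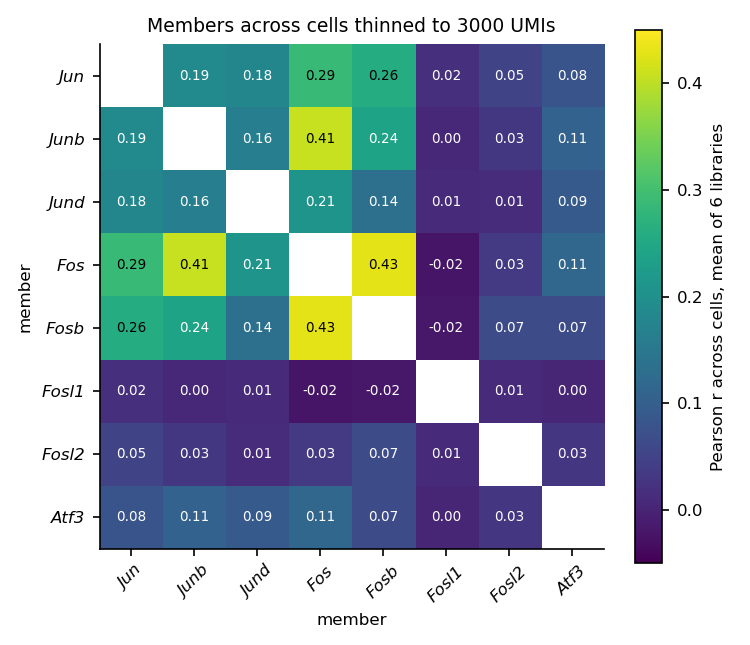
Mean over 6 libraries of Pearson's correlation of log2(UMI + 1) across cells thinned to 3000 UMIs, for each pair of the 8 AP-1 genes. The pairs among Jun, Junb, Jund, Fos and Fosb are the highest, up to 0.43 for Fos and Fosb, and Fosl1 is near 0 with all others.

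The level of a member also depended on how many UMIs a cell held, which matters for every population that follows. In Day 10 cells below 3000 UMIs Fosb was at 379 and 569 CPM, in cells of 3000 to 10000 UMIs at 486 and 489.8, in cells of 10000 to 30000 at 171 and 152 and in larger cells at 81.4 and 69.6. Fosb was thus far lower in deep cells than in shallow ones of the same culture, by much more than A and B differed. Fos behaved alike above 3000 UMIs, with 552 and 693 CPM in Day 7 cells of 3000 to 10000 UMIs and 171 and 180.0 above 30000. Fosl1 went the other way, from 2.18 and 3.48 CPM in Day 10 cells of 10000 to 30000 UMIs to 6.99 and 8.31 above 30000. Jund was nearly level, with 344 and 338 and then 316 and 314 CPM in the same bins. Whether the number of UMIs of a cell stands for its size, its state or its type was not tested.

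**Figure D3:**
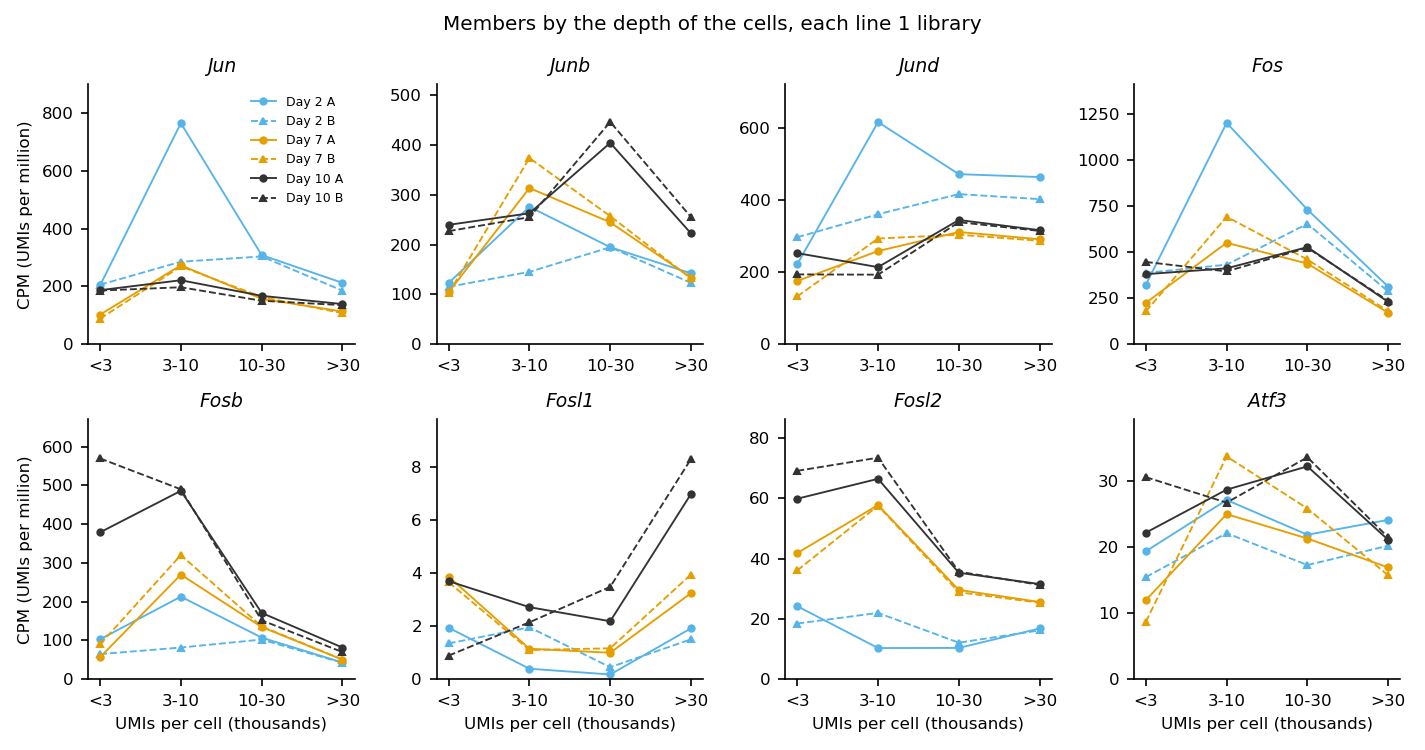
Level of each AP-1 gene, in CPM on a linear axis from 0, in cells grouped by their UMI count (below 3000, 3000 to 10000, 10000 to 30000, above 30000), with 1 line per library. Fosb at Day 10 descends from 486 and 489.8 CPM in cells of 3000 to 10000 UMIs to 81.4 and 69.6 in the largest, and Fosl1 at Day 10 is highest in the largest cells.

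Cells were then divided by a UMI of Gdf5, the growth factor that marks the joint interzone, of Matn1, a cartilage matrix gene, of Tnmd, a tendon gene, or of Cnn1, a calponin of contractile cells. A Gdf5 UMI was found in 23.5 and 11.5% of cells at Day 2 but 3.59 and 3.16% at Day 10, and a Matn1 UMI in 5.76 and 4.08% at Day 2 but 73.4 and 68.3% at Day 7 and 62.3 and 60.1% at Day 10. Tnmd was found in 6.34 to 14.1% and Cnn1 in 24.9 to 41.2% of cells. At Day 7 and Day 10 such a UMI alone does not make a cartilage cell, since of cells with at least 2 UMIs of the macrophage gene C1qb, 18 of 22, 14 of 30, 50 of 92 and 47 of 112 also held one of Matn1. Among companion markers averaged over days, 7 of 7 cartilage genes were higher in cells with Matn1, 6 of 6 tendon genes in cells with Tnmd and 5 of 5 contractile genes in cells with Cnn1. In cells with Gdf5, 4 of 5 interzone genes were higher but so were all 8 cartilage genes, and in cells with Tnmd all 6 contractile genes. Of all genes, 21.9% were called higher with Matn1, 23% with Tnmd, 31.2% with Cnn1 and 14% with Gdf5. At Day 10 the summed cartilage level was 23368 and 20269 CPM in cells with Gdf5 against 9421 and 8699.6 in all cells, whereas at Day 2 it was 1805 and 2022 against 1646 and 1804, so cells with a Gdf5 UMI are not the same population at both ends. Averaged over days, 0 of the 12 AP-1 targets were called higher and 8 lower in cells with Gdf5. The counts were 1 and 8 with Matn1, 4 and 2 with Tnmd and 7 and 1 with Cnn1. Of the 22 dissociation and heat shock genes, 8 were higher and 8 lower with Gdf5, and 5 and 14 with Matn1. With Tnmd these were 8 and 10 and with Cnn1 11 and 9. Of all genes, 19.1% were called lower with Gdf5, 27.1% with Matn1, 23.2% with Tnmd and 36.2% with Cnn1. Cells with a marker UMI were deeper than all cells, as in Day 10 B with a median of 32554 UMIs for Gdf5 against 22128, except for Gdf5 in Day 2 A, where the medians were 18093 and 18587.

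Relative to cells without, cells with Gdf5 had more Jun, Junb, Jund, Fos and Fosb at Day 2 and Day 7 and less at Day 10. Atf3 was higher on the first days, with no difference that passed at Day 10 (0.084 ± 0.09, adjusted p = 0.56). Against cells with none of the 4 markers its Day 10 difference was -0.58 with an adjusted p of 0.03. Jun was at 428 and 388 CPM in cells with Gdf5 and 236 and 212 in cells without at Day 2, 193 and 222 against 137 and 133 at Day 7, and 105 and 132 against 153 and 144 at Day 10. Fos was at 799.9 and 682 CPM with Gdf5 and 483 and 405 without at Day 2, 485 and 568 against 278 and 301 at Day 7, and 243 and 258 against 321 and 332 at Day 10. For both genes the cells with Gdf5 lay above the cells without in all 4 cultures of the first days and below in both Day 10 cultures. At Day 2, Jun (0.78 ± 0.073, adjusted p = 7.3e-05), Fosb (0.78 ± 0.039, adjusted p = 3e-06), Fos (0.65 ± 0.032, adjusted p = 2.3e-06), Junb (0.40), Jund (0.29) and Atf3 (0.23) were higher and Fosl2 (-0.55) lower, 7 members beside 27.3% of all genes called and 11.2% called higher. At Day 7 the same 6 were higher, from 0.33 for Jund to 0.86 for Fos, beside 18% of all genes called and 8.46% called higher. Against the cells with none of the 4 markers the Day 7 direction turned for Jun (-0.19 with an adjusted p of 0.11), Junb (-0.26 with an adjusted p of 0.0087), Fos (-0.35 with an adjusted p of 0.0007), Fosb (-0.60 with an adjusted p of 0.00016) and Atf3 (-0.048 with an adjusted p of 0.86), and of the 6 only Jund stayed higher (0.25).

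At Day 10, Jun (-0.27 ± 0.083, adjusted p = 0.035), Fosb (-0.57 ± 0.044, adjusted p = 1.2e-05), Fos (-0.32), Junb (-0.32) and Jund (-0.13) were lower in cells with Gdf5, 5 members beside 26.1% of all genes called and 13.9% called lower. The change of the effect from Day 2 to Day 10 passed its own test for Fosb (-1.34 ± 0.058, adjusted p = 1.1e-06), Jun (-1.05 ± 0.11, adjusted p = 0.00013), Fos (-0.97 ± 0.046, adjusted p = 1.5e-06), Junb (-0.72), Jund (-0.42) and, upward, Fosl2 (0.36), beside 23.3% of all genes. In cells of 10000 to 30000 UMIs the change still passed for Fosb (-1.08), Fos (-0.77) and Jun (-0.71), but the Day 10 effect on Jun shrank to -0.018 and on Jund to -0.085, and neither passed. With cells thinned to 3000 UMIs and divided again by their thinned counts, 63 and 56 cells held Gdf5 at Day 10. Only Jun then kept a change that passed (-0.86), and the share of all genes that passed in this setting is not given here. There Fosb at Day 10 turned upward (0.53), as did Fos without passing (0.18 with an adjusted p of 0.72). The rise of the Fosl2 effect no longer passed without Day 2 A (0.39, adjusted p = 0.095), Day 2 B (0.34, adjusted p = 0.13) or Day 10 B (0.22, adjusted p = 0.13), or with library totals (0.21), which moved the median gene by -0.15. Among the effects at single days, Jun at Day 10 lost its call without Day 10 A (-0.076, adjusted p = 0.53), Jund at Day 10 without Day 2 A (-0.13, adjusted p = 0.064) or Day 10 B (-0.096, adjusted p = 0.15), and Atf3 at Day 2 without Day 2 A (0.32, adjusted p = 0.12), Day 2 B (0.13, adjusted p = 0.53), Day 7 A or Day 7 B. Averaged over days, 6 members were higher and Fosl2 lower in cells with Gdf5, 7 beside 33.2% of all genes, but the direction of some of these depended on the cells they were set against. Against the cells with none of the 4 markers, whose median was 1527 to 13845 UMIs, the averages of Fos (-0.38), Fosb (-0.64) and Junb (-0.29) were lower and passed, and that of Jun was near 0 (-0.036). The excess of Jun at Day 2 still passed there (0.49), while that of Fos and Fosb at Day 2 was far smaller than against all cells without Gdf5. The change from Day 2 to Day 10 of Jun (-0.90), Fos (-1.05) and Fosb (-1.48) also passed there. Fosl2 went the other way there, its Day 2 effect being 0.017 and its change from Day 2 to Day 10 a fall (-0.43 with an adjusted p of 0.048), and in cells of 10000 to 30000 UMIs its average turned to 0.048 and its Day 7 effect to 0.23 with an adjusted p of 0.037.

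**Figure D4:**
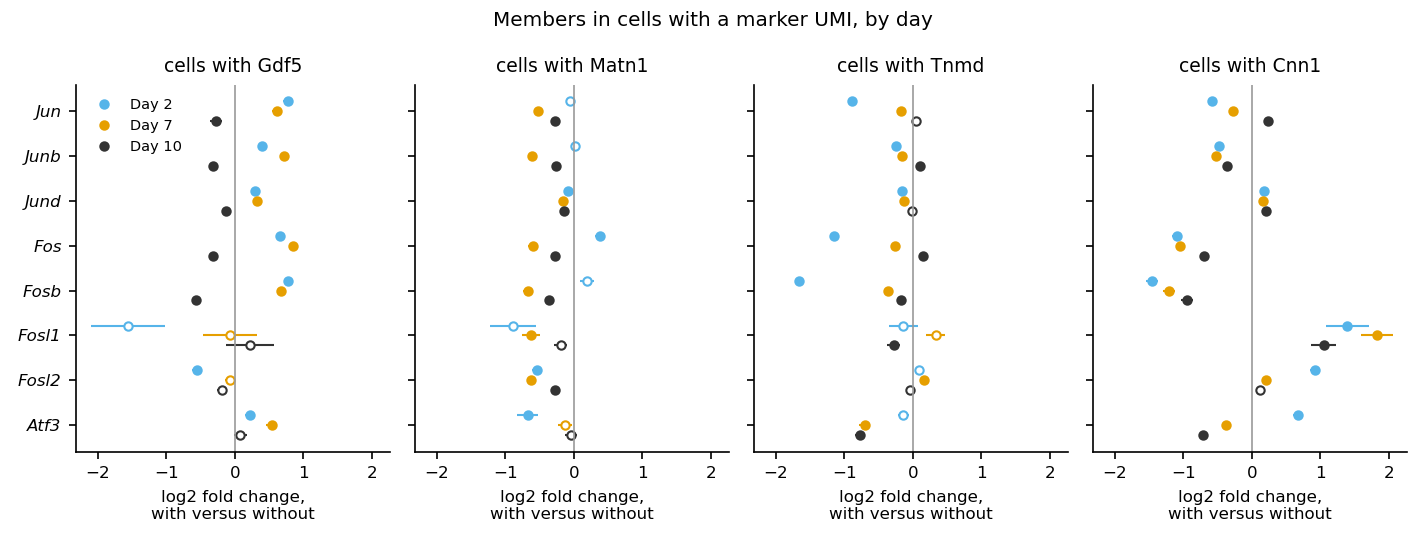
Fitted log2 fold change of each AP-1 gene between cells with and without at least 1 UMI of Gdf5, Matn1, Tnmd or Cnn1, by day in 3 colours, with SE bars (2 libraries per day). Filled points passed an adjusted p of 0.05 and open points did not, and Jun, Junb, Jund, Fos and Fosb lie to the right of 0 at Day 2 and Day 7 and to the left at Day 10 in cells with Gdf5, while Fos and Fosb lie to the left at every day in cells with Cnn1.

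Cells with Matn1 had less of most members at Day 7, when they were the majority of the culture. Fos was then at 278 and 282 CPM with Matn1 and 415 and 519 without (-0.60 ± 0.067, adjusted p = 1.2e-05), and Junb at 173 and 171 against 262 and 312 (-0.60 ± 0.044, adjusted p = 2.7e-07). Fosl2, known in cartilage and bone, was at 27.3 and 26.3 against 45.4 and 44.9 CPM (-0.62 ± 0.036, adjusted p = 3.6e-08). In all, 7 members were lower at Day 7, beside 45.7% of all genes called and 22.6% called lower. Atf3 then missed the threshold (-0.13 ± 0.10, adjusted p = 0.35) and was -0.40, adjusted p = 0.0001 without Day 7 A and 0.21, adjusted p = 0.042 without Day 7 B. At Day 10, 6 were lower by smaller amounts, from -0.15 for Jund to -0.35 for Fosb, beside 35% of genes called and 18.9% called lower. The Day 10 call of Fos was lost without Day 10 A (-0.25, adjusted p = 0.084), that of Fosl1 at Day 7 without Day 7 A (-0.43, adjusted p = 0.061), and Fosl2 at Day 10 turned to 0.025 with thinned cells. At Day 2, when few cells held Matn1, Fos was instead higher, at 806 and 533 CPM against 541 and 454 (0.38 ± 0.069, adjusted p = 0.0014), and Atf3 was lower, at 16.2 and 11.5 against 23.5 and 19.5 (-0.67 ± 0.15, adjusted p = 0.0064), among 4 members called beside 27% of genes. The Day 2 call of Fos rests on Day 2 A, being lost without it (0.19, adjusted p = 0.14), and that of Atf3 was lost without Day 2 A (-0.80, adjusted p = 0.064) or Day 2 B (-0.59, adjusted p = 0.12). The effect on Fos changed from Day 2 to Day 10 by -0.65 ± 0.095, adjusted p = 0.00053, beside 19.2% of genes with a changed effect. In all, 6 members passed that test, but calls were lost without Day 2 A, Day 2 B or Day 10 A. They were also lost in cells of 10000 to 30000 UMIs, and that of Fos alone held in each of these settings. The share of all genes called in these settings is not given here, so the losses cannot be read as particular to the members. Averaged over days all 8 members were lower, with log2 differences from -0.13 to -0.57, beside 49% of genes called and 27.1% called lower, and Jun (-0.30), Junb (-0.47), Jund (-0.23), Fos (-0.24) and Fosl2 (-0.65) were still called lower with cells thinned to 3000 UMIs, where 5377 genes in place of 9034 were called and Fosb at Day 10 was higher (0.35). Atf3 at Day 10, which did not pass (-0.035), was higher with Matn1 in cells with no C1qb UMI (0.16 with an adjusted p of 0.038). Against cells with none of the 4 markers, Fos at Day 2 was no longer higher (-0.025), whereas its deficit at Day 7 grew to -1.23. The average of Fosl1 turned to 0.11 with an adjusted p of 0.60 there, and that of Atf3 missed without Day 2 B (-0.25, adjusted p = 0.052).

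In cells with Tnmd, Jun, Fos and Fosb were low at Day 2, and far less so later. Fosb was at 26.7 and 25.2 CPM with Tnmd and 89.3 and 79.4 without at Day 2 (-1.66 ± 0.062, adjusted p = 4.7e-11), and at 119 and 101 against 129 and 123 at Day 10 (-0.17 ± 0.045, adjusted p = 0.0085). Fos was at 253 and 225 against 599 and 494 CPM at Day 2 (-1.15 ± 0.032, adjusted p = 2.2e-12) and at 334 and 363 against 313 and 321 at Day 10 (0.15 ± 0.03, adjusted p = 0.0015). Jun was at 156 and 139 against 299 and 262 CPM at Day 2 (-0.89 ± 0.04, adjusted p = 4.7e-10) and showed no difference that passed at Day 10 (0.054 ± 0.039, adjusted p = 0.35). The effect of Tnmd rose from Day 2 to Day 10 by 1.49 for Fosb, 1.30 for Fos and 0.94 for Jun, and these 3 also passed with thinned cells, in cells of 10000 to 30000 UMIs and against cells with none of the 4 markers. The small excess of Fos with Tnmd at Day 10 did not pass in cells of 10000 to 30000 UMIs and became a deficit against cells with none of the 4 markers (-0.55), as did that of Junb (-0.43). Without Day 10 B the Day 10 differences of Fos (0.10, adjusted p = 0.13), Fosb (-0.097, adjusted p = 0.31), Junb (0.079, adjusted p = 0.29) and Fosl1 (-0.22, adjusted p = 0.45) did not pass, and without Day 7 B those of Jun (-0.076, adjusted p = 0.22), Junb (-0.11, adjusted p = 0.065), Jund (-0.082, adjusted p = 0.19) and Fosl2 (0.19, adjusted p = 0.088) at Day 7 did not. In all, 6 members passed the test of the change beside 20.8% of genes. Called members numbered 5 at Day 2, all lower, 7 at Day 7, 6 of them lower, and 5 at Day 10, 3 of them lower, beside 33.5%, 34.6% and 27.7% of all genes. Genes called lower were 17.1% at Day 2 and 15.7% at Day 7. Averaged over days, 6 members were lower with Tnmd, from -0.097 for Junb to -0.73 for Fosb, beside 46.1% of genes called and 23.2% called lower. With all barcodes the Junb average turned to 0.0061 with an adjusted p of 0.83.

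The deficit of Atf3 in cells with Tnmd was larger at Day 10 than at Day 2. It was at 22.9 and 14.9 CPM with Tnmd and 23.1 and 19.5 without at Day 2 (-0.14 ± 0.076, adjusted p = 0.20), at 13 and 13.3 against 19.7 and 21.9 at Day 7 (-0.70 ± 0.084, adjusted p = 9.8e-06), and at 15.5 and 15.5 against 26.3 and 27.3 at Day 10 (-0.77 ± 0.068, adjusted p = 6.8e-07). The Day 2 difference passed without Day 2 A (-0.40, adjusted p = 0.0058). Cells with C1qb hold much Atf3 in these cultures, and their part in this difference was not tested. The 6 macrophage markers summed to 25.02 and 38.3 CPM in cells with Tnmd and 113 and 139 in cells without at Day 10. In cells with no C1qb UMI, Atf3 was at 14.5 and 14.2 CPM with Tnmd and 21.6 and 22.6 without at Day 10, the difference was -0.61 with an adjusted p of 1.2e-05, and the one at Day 7 was -0.81. The change from Day 2 to Day 10, -0.64 ± 0.10, adjusted p = 0.00049, was -0.51 with an adjusted p of 0.0035 in these cells and -1.06 with an adjusted p of 0.16 with thinned cells.

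On average over days, cells with Cnn1 had less Fos, Fosb and Junb and more Fosl1 and Fosl2, though Fosl2 did not pass at Day 10 (0.12). Fos was at 341 and 309 CPM with Cnn1 and 846 and 629 without at Day 2, 201 and 197 against 376 and 439 at Day 7, and 239.6 and 254 against 413 and 419 at Day 10, and in each of the 6 cultures it was lower with Cnn1. Fosl1 was at 1.44 and 1.42 with Cnn1 and 0.375 and 0.791 CPM without at Day 2, 3.70 and 4.60 against 1.20 and 1.10 at Day 7, and 7.64 and 7.74 against 2.89 and 5.09 at Day 10. Cells with Cnn1 thus held 65.1 to 83.7% of Fosl1 UMIs but 43.4 to 57.1% of all UMIs. Averaged over days, the differences were -1.20 ± 0.05, adjusted p = 4.2e-08 for Fosb, -0.94 ± 0.037, adjusted p = 3.2e-08 for Fos, -0.46 ± 0.026, adjusted p = 3.1e-07 for Junb and -0.21 for Jun, against 1.42 ± 0.14, adjusted p = 1.5e-05 for Fosl1, 0.42 ± 0.038, adjusted p = 6.7e-06 for Fosl2 and 0.18 for Jund. All 8 members passed, where 67.3% of all genes did. The Fosl1 average was 0.60 in cells of 10000 to 30000 UMIs and still passed, but none of its single days did there, and its Day 2 difference did not pass without Day 2 A (0.90, adjusted p = 0.088).

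Called members in cells with Cnn1 numbered 8 at Day 2, 8 at Day 7 and 7 at Day 10, beside 46.5%, 56.2% and 52.8% of all genes. Calls of Jund and Fosl2 were among the weak ones, since Fosl2 at Day 7 was lost without Day 7 A (0.17, adjusted p = 0.18) or Day 7 B (0.26, adjusted p = 0.059), and Jund at Day 2 without Day 2 B (0.14, adjusted p = 0.071), at Day 7 without Day 7 A (0.15, adjusted p = 0.089) and at Day 10 without Day 10 B (0.14, adjusted p = 0.079). Jund passed on no day with thinned cells or in cells of 10000 to 30000 UMIs, where it was -0.0051 at Day 7. Atf3 changed sides with time, from higher with Cnn1 at Day 2, 26.9 and 22.6 CPM against 18.02 and 14.8 (0.67 ± 0.072, adjusted p = 6.6e-05), to lower at Day 10, 18.8 and 18.98 against 31.2 and 33.04 (-0.71 ± 0.067, adjusted p = 2.2e-05). The change of -1.38 ± 0.098, adjusted p = 2.8e-05 passed, as did that of Jun (0.82 ± 0.061, adjusted p = 3.4e-05) and Fosl2 (-0.80 ± 0.096, adjusted p = 0.00038), among 5 members beside 28% of genes. Jun moved from 219 and 199.9 against 365 and 299 CPM at Day 2 to 160.3 and 149.5 against 139 and 136 at Day 10, where the difference no longer passed in cells of 10000 to 30000 UMIs. Fosl2 moved from 17 and 18.8 against 8.49 and 11.5 to 35.4 and 35.5 against 33.4 and 34.6 CPM. The 6 macrophage markers summed to 27.4 and 29.3 CPM in cells with Cnn1 and 183 and 237 in cells without at Day 10. In cells with no C1qb UMI the Day 10 difference of Atf3 was -0.42 with an adjusted p of 0.00016, the change from Day 2 still passed (-1.17), and the average over days, -0.14 in all cells, was 0.023 with an adjusted p of 0.55, and it also missed without Day 7 B (-0.073, adjusted p = 0.055) or Day 10 B (-0.11, adjusted p = 0.082). Against cells with none of the 4 markers, Fosl2 with Cnn1 was lower at Day 7 (-0.52), and the changes of Fos and Fosb no longer passed. The change of Fos also missed without Day 10 B (0.30, adjusted p = 0.12), and that of Fosb without Day 2 A (0.32, adjusted p = 0.066) or Day 10 A (0.43, adjusted p = 0.085).

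Populations with no shared cells were made from cells that hold a UMI of exactly 1 of the 4 markers. Cells with Gdf5 alone numbered 1301 and 1110 at Day 2, 106 and 223 at Day 7 and only 35 and 30 at Day 10. In them Fos was at 1058 and 908 CPM at Day 2, 1094 and 1328 at Day 7 and then 466 and 546 at Day 10, in cells with Cnn1 alone at 297 and 295 CPM at Day 2, 178 and 216 at Day 7 and then 261 and 272 at Day 10, and in cells with Tnmd alone at 329 and 282 CPM at Day 2, 472 and 550.0 at Day 7 and then 527 and 515 at Day 10. In cells with Matn1 alone it was at 1049.9 and 626 CPM at Day 2, 308 and 312 at Day 7 and then 369 and 378 at Day 10. Fos was thus highest with Gdf5 alone and lowest with Cnn1 alone at Day 7, the gap being 2.44 on the log2 scale, while at Day 2 cells with Matn1 alone ranged between 626 and 1049.9 and overlapped those with Gdf5 alone. Jun was at 531 and 499 CPM at Day 2, 458 and 505 at Day 7 and then 169 and 219 at Day 10 with Gdf5 alone, against 315 and 227 CPM at Day 2, 126 and 121 at Day 7 and then 125 and 120.0 at Day 10 with Matn1 alone. At Day 10 cells with Gdf5 alone were few of the 373 and 314 cells with Gdf5. Jun and Fos lay above whole cultures in these few cells but below whole cultures in all cells with Gdf5.

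Averaged over days, cells with Gdf5 alone had more Jun than cells with Matn1 alone (1.01 ± 0.075, adjusted p = 2.7e-09), Tnmd alone (1.23 ± 0.082, adjusted p = 7.4e-09) or Cnn1 alone (0.92 ± 0.074, adjusted p = 7.7e-09). The same held for Fos (0.70, 0.85 and 1.57), Fosb (0.75, 1.01 and 1.73), Junb (0.82, 0.52 and 1.06) and Atf3 (0.64, 1.58 and 0.67), all of which passed. Members called numbered 7 beside 28.3% of all genes, 6 beside 13.7% and 7 beside 34.5%, and those called higher with Gdf5 numbered 7, 6 and 6, beside 10.5%, 3.9% and 9.98% of genes. Fosl2 was higher with Gdf5 than with Matn1 alone (0.52) but lower than with Cnn1 alone (-0.33), a call lost without Day 7 B (-0.25, adjusted p = 0.059) or Day 10 A (-0.22, adjusted p = 0.065). That average against Cnn1 covers opposite directions, since Fosl2 was at 6.98 and 8.10 CPM with Gdf5 alone and 18.7 and 21.5 with Cnn1 alone at Day 2 (-1.58 ± 0.091, adjusted p = 6.9e-11), but at 56.9 and 53.8 against 44.2 and 42.1 at Day 7 and 43.2 and 71.9 against 38.9 and 37.5 at Day 10, where neither difference passed (0.17 and 0.41). Atf3 at Day 2 also went against its average, at 23.2 and 23.97 CPM with Gdf5 alone and 26.8 and 24.8 with Cnn1 alone (-0.30 ± 0.12, adjusted p = 0.041), a call lost without Day 2 A, Day 7 B or Day 10 B.

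Cells with Gdf5 alone held fewer UMIs than cells with Cnn1 alone in all libraries but Day 2 B. Their medians were 7364.5 and 7210 UMIs at Day 7 against 17848 and 15541 with Cnn1 alone, 13922 and 15910.5 against 31002.5 and 30595.5 at Day 10, and 13305 against 6208 in Day 2 B. Against Cnn1 alone, 4 of the 7 averages passed both with cells thinned to 3000 UMIs and in cells of 10000 to 30000 UMIs, those of Jun (0.96 and 0.84), Junb (1.18 and 0.84), Fos (1.69 and 1.20) and Fosb (1.99 and 1.24), whereas Jund, Fosl2 and Atf3 passed in neither. Calls among all genes were 2290 and 2371 in these settings, from 5130. Thinned cells were divided again by their thinned counts, so these groups were not the same cells. Cnn1 alone in Day 7 A, for one, went from 719 to 761 cells. At Day 10 alone, 3, 1 and 3 members were called in the 3 comparisons, all higher with Gdf5, beside 8.87%, 3.99% and 8.35% of genes called and 2.64%, 1.05% and 1.7% called higher. Without Day 10 B no Day 10 difference of Junb, Fosl1 or Fosl2 against Matn1 alone passed, Fosl1 going from 2.65 to 0.44, adjusted p = 0.92. Against Cnn1 alone, the Day 10 calls of Junb (0.60), Fos (0.72) and Atf3 (0.90) were also lost without Day 10 B, at 0.27, adjusted p = 0.38, 0.70, adjusted p = 0.15 and 1.43, adjusted p = 0.051. There edgeR called 0 members against Matn1 or Cnn1 alone, with 1 and 3 at an unadjusted p under 0.05. The call of Atf3 against Cnn1 was lost as well without Day 7 A, Day 7 B or Day 10 A, and against Tnmd alone (1.27) without Day 10 A (0.72, adjusted p = 0.56). The Day 10 calls by edgeR also came to 0 against Matn1 alone with thinned cells (2 at an unadjusted p under 0.05), against Tnmd alone (1) and Cnn1 alone (4) in cells of 10000 to 30000 UMIs, and against Tnmd alone in cells with no C1qb UMI (3). In cells of 10000 to 30000 UMIs, which leave 11 cells with Gdf5 alone in each Day 10 library, the Atf3 average turned to -0.91 against Matn1 and -0.60 against Cnn1, and neither passed. In Day 10 B the few cells with Gdf5 alone had 39.6 CPM of Fosl1 from 27 UMIs and 285 CPM of 6 macrophage markers, against 3.45 and 1.73 CPM in Day 10 A, so these libraries disagreed. With library totals in place of TMM factors the median gene lay higher by 0.18 against Matn1 alone, 0.11 against Tnmd alone and 0.18 against Cnn1 alone, and the lower Fosl2 against Cnn1 no longer passed (-0.15).

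**Figure D5:**
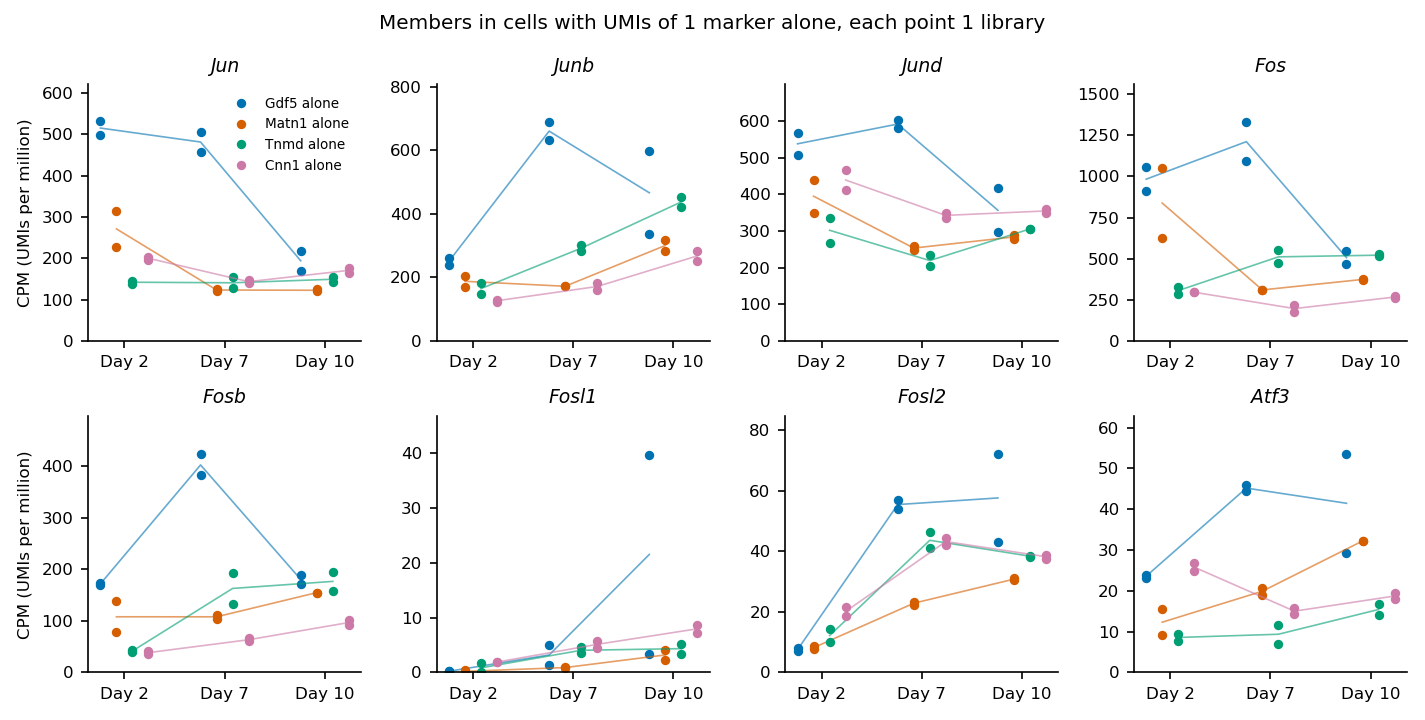
Level of each AP-1 gene, in CPM on a linear axis from 0, in cells that hold a UMI of Gdf5, Matn1, Tnmd or Cnn1 alone, for each of the 6 libraries by day. Fos in cells with Gdf5 alone reaches 1094 and 1328 CPM at Day 7, above the other 3 populations, and falls to 466 and 546 at Day 10.

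Atf3 stood far above its level in whole cultures in cells that held C1qb. Cells with at least 2 UMIs of C1qb, a complement gene of macrophages, numbered 19 and 11 at Day 2, 22 and 30 at Day 7 and then 92 and 112 at Day 10, and the 6 macrophage markers summed to 5984 to 10799 CPM in them beside 11.4 to 122 in all cells. Atf3 was at 394 and 237 CPM at Day 2, 403 and 540.1 at Day 7 and then 484 and 387 at Day 10, against the 18.9 to 25.3 CPM of whole cultures, and the smallest of these levels rests on 41 UMIs. These cells held 1.22 to 16.7% of the Atf3 UMIs of a library but 0.0971 to 1.09% of all UMIs. Junb, at 447 to 762 CPM, also stood above its level in every whole culture, whereas Fosb at 34.7 to 77.2 CPM and Fosl1 at 0 to 2.75 did not. These cells also held a larger share of Fos UMIs than of all UMIs in each library. It was 1.76% against 0.836% in Day 10 A but only 0.108% against 0.0971% in Day 2 B. The same held for Jun in all libraries but Day 2 B, with 1.42% against 0.836% in Day 10 A, while Jund and Fosl2 went either way. These levels are a description, with no test.

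In the cells that held no C1qb UMI, Atf3 was at 22.3 and 18.7 CPM at Day 2, 17.7 and 18.98 at Day 7 and then 20.3 and 21.2 at Day 10, and the Day 10 cultures lay within the range of the Day 2 cultures. Its change from Day 7 to Day 10 was then 0.16 with an adjusted p of 0.16 and no longer passed, while that from Day 2 to Day 10 was 0.28 with an adjusted p of 0.016 relative to the bulk of genes. Cells with C1qb grew in number with the days, and their part in the rise of Atf3 in whole cultures was not tested. No other call of a member between days moved when these cells were left out.

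Cells with at least 2 UMIs of Myog, a muscle regulator, numbered 258 and 227 at Day 2 and had less Jun, Fos and Fosb than whole cultures. Jun was at 81.5 and 56.7 CPM and Fos at 121 and 99.2, beside 281 and 246 for Jun and 557 and 459 for Fos in whole cultures, and Fosb at 14.05 and 10.3 beside 81.8 and 72.4. Day 7 A had 22 such cells, with Fos at 62.8 CPM, and the later libraries had fewer than 10 each.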

How the data were processed

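Single-cell RNA was measured in 6 droplet libraries, 2 per day, one deposited count matrix per library. The authors made the UMI counts with Cell Ranger 6.1.2 from reads aligned with STAR to GRCm38 (mm10), and the submitters' processing notes also name Seurat 4.1.0 for later steps that the matrices do not contain. The matrices hold whole-number counts of UMIs per gene and barcode, with no normalization and before the study's filters.

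The study's filters were applied per library, namely minima of 800 or 1000 UMIs and 200 genes and maxima of 7500 genes, 25, 30 or 40% mitochondrial and 35 or 40% ribosomal UMIs. No doublet caller was run and no doublets were removed beyond the gene maximum. UMIs were summed per library, or per library and marker population of at least 10 cells, because cells are not replicates. Sums were tested with edgeR 4.0.16 (filterByExpr, TMM factors, quasi-likelihood test) in R 4.3.3, with Benjamini-Hochberg adjustment over all genes tested and a call at an adjusted p under 0.05. The whole-culture fit had 6 sums and day as its only term. Each marker fit had 12 sums, with the library as a term and a marker effect per day, and left the marker gene out. The fit of cells with 1 marker alone had 24 sums. Fold changes are log2, with their SE, and n is 2 libraries per day in every test. The sources used here do not say whether the 2 cultures of a day came from 1 pool of limb buds, so p-values of the whole-culture fit measure the spread between these cultures. The marker fits and the fit of cells with 1 marker alone hold the library as a term. Their p-values measure how the difference within a culture varied between these cultures. The sources name no pairing of the letters A and B across days. Deviations from the day means correlated at -0.0094, -0.077 and 0.0101, which showed no pairing but cannot exclude a shared pool or handling.

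The members and lists were chosen with earlier results of these data known. The genes named are the members, those of each list with the largest change among the called, list genes singled out after their values were seen, and the 5 most like Jun, Fos, Atf3 and Fosl1 by correlation. Alternatives were DESeq2 1.42.0, no filter on genes or on cells, other marker thresholds and comparison cells, thinning to 3000 UMIs, other blocks and leaving out each library. Thinning left out cells below 3000 UMIs, and marker populations were drawn again from the thinned counts. Cells of 10000 to 30000 UMIs, cells with no C1qb UMI and library totals in place of TMM factors were added after the data had been seen. On data simulated from the real means with 200 genes changed, the whole-culture test recovered 62 of 98 genes changed 1.5-fold (63.3%) and 78 of 99 changed 2-fold (78.8%) among 18556 genes for Day 7 against Day 2, with 13 false calls. For cells with Gdf5 alone against Matn1 alone the test recovered 55 of 99 (55.6%) at 1.5-fold and 81 of 99 (81.8%) at 2-fold among 14182 genes, with 5 false calls. The simulated sums held no library effect and few changed genes, whereas 70.3% and 28.3% of real genes were called in these comparisons. The rates therefore may not hold for the real sums. Matplotlib 3.10.9, scipy 1.17.1, pandas 2.3.3, numpy 2.4.6 and Python 3.11.15 were also used. The imaging of the study was not analysed here.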

Additional observations from a re-analysis of the deposited data

Results flagged for a closer look

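The effect of a marker on a member was compared between Day 10 and Day 2 by a term in the edgeR fit, and 23 such differences passed at an adjusted p under 0.05. Each value is the log2 effect at Day 10 minus that at Day 2 (2 libraries per day), beside a percentage of all genes whose effect also changed. That percentage holds for the main setting only, and calls lost in other settings stand without one. For cells with Gdf5 against cells without, the effect differed for Jun (-1.05), Junb (-0.72), Jund (-0.42), Fos (-0.97), Fosb (-1.34) and Fosl2 (0.36), beside 23.3% of genes. The Gdf5 effect on Fosl2 lost its call without Day 2 A, Day 2 B or Day 10 B, where it ranged from 0.22 to 0.39. It turned to -0.43 with an adjusted p of 0.048 against cells with none of the 4 markers. For cells with Matn1 against cells without, the effect differed for Jun (-0.22), Junb (-0.28), Fos (-0.65), Fosb (-0.55), Fosl2 (0.27) and Atf3 (0.63), beside 19.2% of genes. Of the Matn1 effects, 1 to 6 kept a call when 1 library was left out, and with no library block edgeR called 0 of them (4 at an unadjusted p under 0.05). Against cells with none of the 4 markers the Matn1 changes of Fosl2 (-0.26) and Atf3 (-0.56) turned without passing, and with cells thinned to 3000 UMIs that of Fosb turned to 0.48 with an adjusted p of 0.022. For cells with Tnmd against cells without, the effect differed for Jun (0.94), Junb (0.36), Jund (0.15), Fos (1.30), Fosb (1.49) and Atf3 (-0.64), beside 20.8% of genes. The Tnmd effect on Jund lost its call without Day 2 B (0.11, adjusted p = 0.14), Day 10 A (0.17, adjusted p = 0.069) or Day 10 B (0.14, adjusted p = 0.11). Against cells with none of the 4 markers the Tnmd changes of Junb (-0.071) and Jund (-0.13) turned without passing, and with no library block 3 members were called. For cells with Cnn1 against cells without, the effect differed for Jun (0.82), Fos (0.40), Fosb (0.50), Fosl2 (-0.80) and Atf3 (-1.38), beside 28% of genes. The Cnn1 effects on Fos and Fosb had the opposite sign, near 0, against cells with none of the 4 markers. The change of Fos lost its call without Day 10 B, and that of Fosb without Day 2 A or Day 10 A.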

How the results depend on the processing

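Across all settings 4024 log2 differences of members were recomputed. Of these, 3580 stayed on the same side of the threshold, which includes sign changes where neither value passed. Another 298 lost a call and 88 gained one. The remaining 58 changed sign where either value passed, 31 of these against cells with none of the 4 markers. Sign changes named below are among these 58. Calls among all genes in these settings are not given for the changes of marker effects or for single days. Cells of 10000 to 30000 UMIs, cells with no C1qb UMI and library totals were added after the data had been seen, and the cause of these changes was not tested. Each log2 difference is followed by its comparison, in which a marker stands for cells with its UMI against cells without. Deviations of libraries with the same letter, A or B, correlated at -0.0094, -0.077 and 0.0101 across days, which cannot exclude a pairing. With the letters as a replicate block 3 members in place of 5 were called from Day 7 to Day 10, the losses being Fosb (0.23) and Atf3 (0.29). With all barcodes, the sign changed for Jund 0.052 (Matn1 at Day 2), Junb 0.0061 (Tnmd over the days), Junb 0.036 (Tnmd at Day 7). With all barcodes the calls among members numbered 2 for Day 10 versus Day 7 (from 5). With cells thinned to 3000 UMIs, the sign changed for Jun -0.27 (Day 10 versus Day 7), Fos 0.18 and Fosb 0.53 (Gdf5 at Day 10), Fosb 0.35, Fosl2 0.025 and Atf3 0.26 (Matn1 at Day 10), Fosb 0.48 (the change of the Matn1 effect). The sign also changed there for Fosb 1.11 (Gdf5 alone versus Tnmd alone at Day 10). With cells thinned to 3000 UMIs the calls among members numbered 2 for Day 10 versus Day 7 (from 5), 1 for the change of the Gdf5 effect (from 6), 5 for Matn1 over the days (from 8), 3 for the change of the Matn1 effect (from 6), 3 for the change of the Cnn1 effect (from 5) and 4 for Gdf5 alone versus Cnn1 alone (from 7). With cells thinned to 3000 UMIs the calls among all genes numbered 5805 for Day 10 versus Day 7 (from 9913), 1562 for Gdf5 over the days (from 6005), 5377 for Matn1 over the days (from 9034), 1907 for Tnmd over the days (from 8367), 6548 for Cnn1 over the days (from 12365), 1435 for Gdf5 alone versus Matn1 alone (from 4200), 1256 for Gdf5 alone versus Tnmd alone (from 2032) and 2290 for Gdf5 alone versus Cnn1 alone (from 5130). Against cells with none of the 4 markers, the sign changed for Jun -0.036, Junb -0.29, Fos -0.38 and Fosb -0.64 (Gdf5 over the days), Fosl2 0.017 (Gdf5 at Day 2), Jun -0.19, Junb -0.26, Fos -0.35, Fosb -0.60 and Atf3 -0.048 (Gdf5 at Day 7), Atf3 -0.58 (Gdf5 at Day 10). The sign also changed there for Fosl2 -0.43 (the change of the Gdf5 effect), Fosl1 0.11 (Matn1 over the days), Jund 0.12, Fos -0.025 and Fosb -0.33 (Matn1 at Day 2), Fosl1 0.31 (Matn1 at Day 7). It changed as well for Fosl2 -0.26 and Atf3 -0.56 (the change of the Matn1 effect), Fosl1 0.42 (Tnmd over the days), Jund 0.052 (Tnmd at Day 2), Fosl2 -0.50 (Tnmd at Day 7). The sign also changed there for Junb -0.43, Fos -0.55 and Fosl1 0.0028 (Tnmd at Day 10), Junb -0.071 and Jund -0.13 (the change of the Tnmd effect), Fosl2 -0.52 (Cnn1 at Day 7), Jun -0.067 (Cnn1 at Day 10). It changed as well for Fos -0.039 and Fosb -0.058 (the change of the Cnn1 effect). Against cells with none of the 4 markers the calls among members numbered 3 for the change of the Matn1 effect (from 6) and 3 for the change of the Cnn1 effect (from 5). In cells of 10000 to 30000 UMIs, the sign changed for Fosl2 0.048 (Gdf5 over the days), Fosl2 0.23 (Gdf5 at Day 7), Junb -0.063 and Fosl1 0.17 (Tnmd at Day 10), Jund -0.0051 (Cnn1 at Day 7). The sign also changed there for Jun -0.00085 (Cnn1 at Day 10), Atf3 -0.91 (Gdf5 alone versus Matn1 alone), Fosl1 -0.015 and Atf3 -4.22 (Gdf5 alone versus Matn1 alone at Day 10), Atf3 -2.55 (Gdf5 alone versus Tnmd alone at Day 10). It changed as well for Atf3 -0.60 (Gdf5 alone versus Cnn1 alone), Atf3 -3.37 (Gdf5 alone versus Cnn1 alone at Day 10). In cells of 10000 to 30000 UMIs the calls among members numbered 1 for the change of the Matn1 effect (from 6) and 4 for Gdf5 alone versus Cnn1 alone (from 7). In cells of 10000 to 30000 UMIs the calls among all genes numbered 3633 for Gdf5 over the days (from 6005), 4768 for Tnmd over the days (from 8367), 7400 for Cnn1 over the days (from 12365), 2429 for Gdf5 alone versus Matn1 alone (from 4200) and 2371 for Gdf5 alone versus Cnn1 alone (from 5130). With no library block the calls among members numbered 0 for the change of the Matn1 effect (from 6) and 3 for the change of the Tnmd effect (from 6). In cells with no C1qb UMI, the sign changed for Atf3 0.16 (Matn1 at Day 10), Atf3 0.023 (Cnn1 over the days). Leaving out 1 library at a time gave 2 to 5 calls among members for Day 10 versus Day 7, Fosl1 -1.06 to 0.96 for Gdf5 at Day 10, 1 to 6 calls among members for the change of the Matn1 effect, Atf3 -0.40 to 0.21 for Matn1 at Day 7 and 1099 to 1655 calls among all genes for Gdf5 alone versus Tnmd alone. With Day 10 B left out, Fosl1 for Gdf5 at Day 10 was -1.06, and with Day 7 B left out, Atf3 for Matn1 at Day 7 was 0.21. With 1 library of a day left, the lone library is assumed to vary like the others. With at least 2 UMIs of a marker, cells with Gdf5 alone at Day 10 were too few, so those averages cover Day 2 and Day 7. With no library block, edgeR found 0 members for the change of the Matn1 effect at an adjusted p under 0.05 and 4 at an unadjusted p under 0.05, and DESeq2 with the block found 5. Depth limits Fosl1 most, at 200 UMIs in the library with least.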

Other observations

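The barcodes that the study's filters leave out, 1928 to 5703 per library, were read for the 8 members as well. Fosl1 was higher in them than in the cells kept of the same culture in all 6 libraries, at 4.27 and 3.90 CPM at Day 2, 7.65 and 6.63 at Day 7 and then 11.99 and 10.1 at Day 10, which rests on 204 to 934 UMIs. Fos was lower in them in every library, at 301 and 207 CPM at Day 2, 216 and 249 at Day 7 and then 197 and 244 at Day 10, and so was Fosb, at 40.6 and 34.04 CPM at Day 2, 57.6 and 69 at Day 7 and then 70.7 and 71.9 at Day 10. Jund was close to its level in the cells kept, at 484 and 401 CPM at Day 2, 323 and 306 at Day 7 and then 318 and 303 at Day 10. These are levels only, and no test was made of them.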
